A study of Mus musculus with 9 samples.

Results

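The regions described here are stretches of accessible chromatin that the authors annotated to introns and to no other part of a gene. They were chosen from the union of the authors' 3 lists of regions: a region was kept if its annotation named an intron and named no promoter, no sequence 1 to 5 kb upstream of a gene, no exon and no untranslated region, while CpG annotations were allowed. The rule kept 592 of 1832 regions, or 32.3%. The other regions were 262 with a promoter annotation, 352 with another genic annotation and 626 with no genic annotation. The rule read annotations only, but every region entered a list by its measured change, so the count of listed regions is a description.

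The assay was ATAC-seq, which maps open chromatin by letting a transposase insert adapters into it, and the cells were myotubes of the mouse myoblast line C2C12 that had been differentiated for 48 h in medium with horse serum. One group was left untreated, 1 received 10 mM ammonium acetate for 3 h and 1 received 10 mM ammonium acetate for 24 h, with 3 libraries in each group. The labels call the libraries of a group biological replicates. The study concerns the response of muscle cells to excess ammonia. The same untreated libraries served as the control at both times, no time is given for them, and no group received acetate without ammonium, so ammonium, acetate and time in culture cannot be told apart.

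The material analysed was the authors' edgeR result for each listed region in 3 comparisons, namely of each treated group with the untreated group and of the treated groups with each other. These tables hold no value per library, so the values of single samples cannot be shown, the depth of each library is unknown, and replicate spread is seen only as far as the authors' test used it. In bulk cultures a change in the make-up of the cells cannot be told apart from a change within each cell. The errors given below are approximate standard errors, obtained by dividing the size of the log2 fold change by the square root of the deposited F statistic. The identity of the cultures could not be checked here: of 10 markers of differentiated muscle and 10 of fibroblasts none hosted a listed intron-only region, and of 10 markers of myoblasts and reserve cells Pax7 alone did. All coordinates are on mm10.

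Introns make up most of the length of most mammalian genes and hold many enhancers, stretches of DNA where transcription factors bind and act on a promoter that may lie far away. Such an enhancer can act on the gene that contains it or on a neighbour, so the host gene names a position and not a target. In muscle, MyoD-family factors bind the E-box, a short motif common in muscle enhancers, and AP-1, a dimer of Fos and Jun family proteins, binds stimulus-responsive enhancers in many cell types. Open intronic DNA can also be the start of an unannotated transcript, an insulator or an alternative promoter.

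DNA of the build could be printed for the regions that overlapped a RefSeq promoter window by at least 30 bases. Of the 592 regions, 3 overlapped such a window at all, and 0 overlapped a RefSeq miRNA. Windows on an excluded chromosome were not printed, so a window not shown need not have failed the overlap limit. The windows shown give the letters of a region that fell at 24 h and of the only region hosted by a listed gene of ammonia metabolism. Capitals mark matches to the E-box (CANNTG) and to the AP-1 motif (TGANTCA), both strands were searched and no match overlapped another. The first lies within the Pknox2 region at chr9:37053708-37054007, plus strand, 300 bases around a start of the long non-coding gene Gm34538. The second lies within the Ampd3 region at chr7:110780763-110780939, minus strand, 177 bases that belong to the window of the long non-coding gene Gm39069. The sequences are from RefSeq on GRCm38.p6, the same assembly.
Pknox2: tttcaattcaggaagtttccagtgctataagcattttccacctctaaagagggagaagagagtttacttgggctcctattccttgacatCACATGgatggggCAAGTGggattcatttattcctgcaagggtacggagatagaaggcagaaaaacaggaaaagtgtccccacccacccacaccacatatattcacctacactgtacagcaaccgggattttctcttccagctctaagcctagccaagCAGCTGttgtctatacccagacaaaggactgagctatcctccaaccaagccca
Ampd3: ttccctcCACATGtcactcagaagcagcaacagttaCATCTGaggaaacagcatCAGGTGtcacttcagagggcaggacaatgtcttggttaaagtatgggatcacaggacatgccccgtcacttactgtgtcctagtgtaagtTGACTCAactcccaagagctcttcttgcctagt

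The Pknox2 stretch held 3 E-box matches and none of the other motifs searched. Among 32851 RefSeq promoter windows of 300 bases, 72.3% held an E-box match. The Ampd3 stretch held 3 E-box matches and 1 AP-1 match, which starts at base 145 of the printed sequence. In stretches of 177 bases cut from the same place in all windows, 53.2% held an E-box and 4.77% an AP-1 match. Neither stretch held the cyclic AMP response element TGACGTCA, the TEAD motif GGAATG or the TALE homeodomain motif TGACAG, which 1.79%, 14.7% and 19.2% of the windows of 300 bases held. A match is a description of the letters and not a measured binding site.

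The protein-coding hosts of the regions were mostly long genes. All 592 regions fell wholly within an intron of the authors' annotation, but only 543 lay wholly inside the body of any RefSeq gene. A host symbol was given for 547 and none for 45, and the symbols named 491 different genes, of which 490 identifiers matched RefSeq. The protein-coding hosts bore 454 different labels, where a pair of symbols counted as 1 label with the length of the shorter gene. Their median gene length was 114.8 kb, against 17.1 kb over 21896 protein-coding genes in RefSeq. Of these hosts 58.6% were longer than 100 kb, against 11.1% of all protein-coding genes. Long genes hold more intron, so the annotation rule favours them. The number of tested intron-only regions is not known here, so no share of them can be given. The median width of the 592 regions was 575 bp (range 201 to 2146 bp). Position was measured for the 514 regions inside the RefSeq body of a matched host. Their median distance from the start of the host was 52.5 kb, and their median place was 47.7% of the way along it. The median host intron was 23.6 kb long, with quartiles of 8.67 and 60.6 kb. The nearest intron end lay within 1 kb of 122 regions and more than 10 kb from 193 regions.

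Few of these regions lay close to a gene start, which the rule largely sets by leaving out promoter and upstream annotations. A RefSeq gene of any kind started within 5 kb of 82 regions (13.9%), and a protein-coding gene within 5 kb of 44. A CpG island, shore or shelf, the CpG-rich sequence typical of promoters and its flanks, was annotated at 42 regions (7.09%): 3 touched an island, 29 a shore and 17 a shelf. The share was 54.6% of promoter regions and 2.56% of regions with no genic annotation, a contrast that the rule itself partly sets. The X chromosome held 4 of the 592 regions (0.676%), beside 22 of all 1832 listed regions (1.20%).

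The host symbol was not always the gene around the region. Of 546 regions with a matched host, 514 lay inside the RefSeq body of that host and 32 did not. The Ank3 region lay 97.8 kb outside the RefSeq gene and the Commd10 region 142.2 kb outside. Where a region carried 2 symbols, as 11 did, only the shorter gene was checked. For 3 of the 32 regions the checked gene was more than 1000 kb away. A region labelled Galnt2 lay 2359 kb from it, and both regions labelled Fgfr2 lay 1960 and 2818 kb from it. The second of the Fgfr2 regions also carried the symbol Ctbp2 and lay within that gene. Another region labelled Galnt2 (chr8:122548838-122549478) also carried Piezo1 and was counted as inside through it, though it too lay outside Galnt2.

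After 24 h of ammonium acetate, 43 intron-only regions passed an adjusted p of 0.05 in the authors' edgeR test, and more of them fell than rose. The 43 were 28.7% of the 150 regions called in that comparison, and over all 146047 tested regions 0.103% were called. Accessibility rose at 16 regions (0.0459% of all tested regions rose) and fell at 27 (0.0568% of all fell). The share that rose was 37.2% (95% Clopper-Pearson interval 23.0 to 53.3%), beside 44.7% of all called regions, 40.6% of those with no genic annotation and 66.7% of promoter regions, and no test was made between these classes. The median absolute log2 fold change was 1.05, beside 1.10 over all called regions, and 26 of the 43 changed at least 2-fold. The adjusted p ran from 0.00113 to 0.0499, and the median approximate standard error was 0.18.

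**Figure D1:**
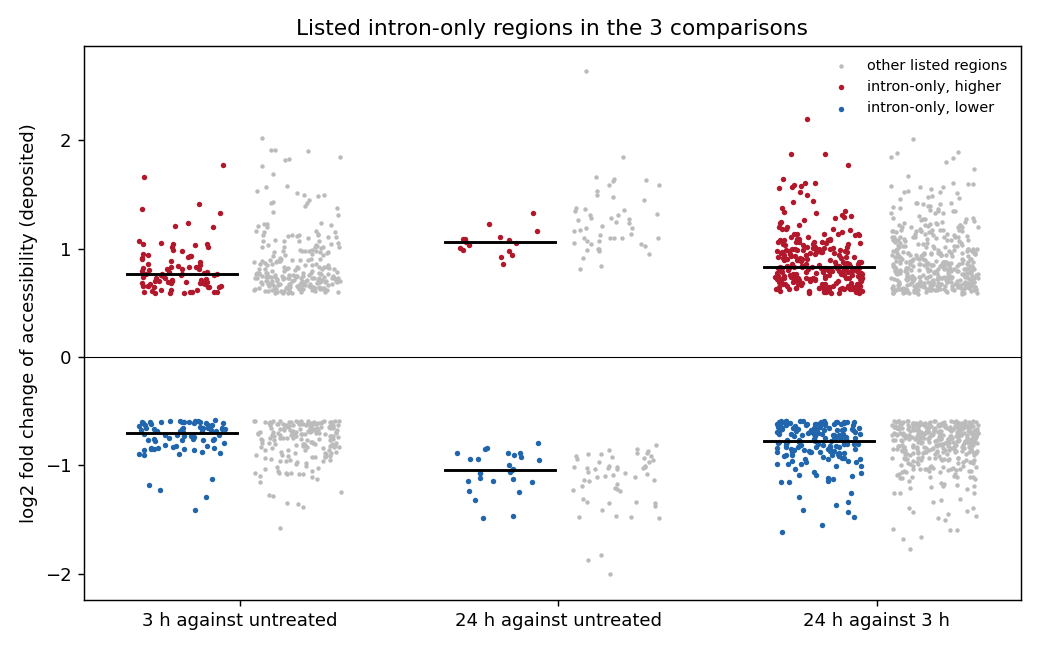
Deposited log2 fold change (vertical axis) of every listed intron-only region, with red points for higher and blue points for lower regions, beside grey points for the other regions of the same list, in the 3 comparisons. Black lines are medians of the intron-only regions in each direction, and the empty band around 0 is where regions missed the list's threshold: the medians were 0.77 and -0.70 at 3 h, 1.06 and -1.04 at 24 h, and 0.83 and -0.77 for 24 h against 3 h.

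The largest of these changes with a small error was a loss in Plekha6, which encodes a pleckstrin homology domain protein. In the authors' deposited table this region (chr1:133217458-133218192) fell by 1.46 on the log2 scale, with an error of 0.16 and an edgeR adjusted p of 0.00113, a 2.76-fold loss. A region in Cpa5, a carboxypeptidase gene (chr6:30628039-30628596), fell by 1.32 in the authors' deposited table, with an error of 0.18 and an adjusted p of 0.0077 by edgeR. A region in Ttc33 (chr15:5195904-5196613) fell by 1.14 ± 0.17 (adjusted p = 0.0138 by edgeR in the authors' deposited table). These regions led the list by p among the losses, and Plekha6 led it in both directions. The largest loss of all, 1.49 ± 0.28 in the authors' deposited table (adjusted p = 0.0392 by edgeR), was at a region with no host symbol (chr8:126873949-126874519). Further regions with no host symbol fell by 1.04 ± 0.17 on chromosome 7, by 1.0 ± 0.16 on chromosome 14 and by 0.92 ± 0.18 on chromosome 13 in the authors' deposited table, and 1 on chromosome 8 rose by 0.86 ± 0.16.

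Of the gains, 2 were hosted by genes in the list of insulin and mTORC1 signalling, Fnip2 and Rragc, and 2 by genes in the list of growth factors and receptor kinases, Nrg1 and Lrig1. Fnip2 encodes a partner of folliculin, which acts on the Rag GTPases that bring mTORC1 to the lysosome when amino acids are present. Its region (chr3:79531678-79532518) rose by 1.09 ± 0.16 in the authors' deposited table, with the smallest edgeR adjusted p of any gain, 0.0096. Rragc, which encodes one of those Rag GTPases, hosted a region that rose by 1.09 ± 0.22 (adjusted p = 0.0499 by edgeR in the authors' deposited table), at the edge of the threshold. Nrg1 encodes neuregulin, a ligand of ErbB receptors that motor axons and muscle use. Its region (chr8:32334376-32335026), 556908 bp into Nrg1, rose by 1.23 ± 0.19 in the authors' deposited table (adjusted p = 0.0149 by edgeR). Lrig1, a transmembrane protein that restrains ErbB receptors, hosted a region (chr6:94618550-94619305) that rose by 1.16 ± 0.19 in the authors' deposited table (adjusted p = 0.0204 by edgeR). The largest gain was in Gng7, a G protein gamma subunit gene (chr10:80989822-80990291), at 1.33 ± 0.24 or 2.52-fold in the authors' deposited table (adjusted p = 0.0333 by edgeR).

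Hosts in the list of 67 genes of guidance, adhesion and matrix were Itga5, Sema5b and Col18a1. Itga5 encodes the alpha subunit of the fibronectin receptor, and its region (chr15:103365505-103366127), 664 bp from the gene's start, fell by 1.04 ± 0.20 in the authors' deposited table (adjusted p = 0.0444 by edgeR). Sema5b, a semaphorin gene of axon guidance, hosted a region (chr16:35613688-35614669) that fell by 1.23 ± 0.21 (adjusted p = 0.0257 by edgeR in the authors' deposited table). Col18a1 encodes a basement membrane collagen, and its region fell by 0.89 ± 0.18 in the authors' deposited table (adjusted p = 0.0493 by edgeR). The list thus had 3 losses and no gain at 24 h, where 55.3% of all called regions and 62.8% of the intron-only ones were losses. Ltbp1, which holds latent TGF-beta in the matrix, hosted a region (chr17:75344892-75345635) that fell by 0.84 ± 0.17 (adjusted p = 0.0499 by edgeR in the authors' deposited table). Tll2, a tolloid-like protease that cleaves matrix and growth factor precursors, hosted a region that fell by 1.25 ± 0.22 in the authors' deposited table (adjusted p = 0.0292 by edgeR). Ext1, a polymerase of heparan sulfate, hosted a region (chr15:53170274-53171023) that rose by 0.94 ± 0.18 (adjusted p = 0.0399 by edgeR in the authors' deposited table).

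Regulators of the cytoskeleton and membrane were hosts in both directions. A region in Arhgap12, a GTPase-activating protein (chr18:6132113-6132843), 3255 bp from its start, rose by 1.07 ± 0.17 in the authors' deposited table (adjusted p = 0.0204 by edgeR), and a region in Myo10, a filopodial myosin, rose by 1.03 ± 0.18 (0.0257). A region in Arhgef3, a guanine nucleotide exchange factor, fell by 0.91 ± 0.16 in the authors' deposited table (adjusted p = 0.0287 by edgeR). Losses at genes of membrane-associated proteins included Anxa6, an annexin of membrane repair (chr11:55031376-55032425), whose region 1046 bp from the gene's start fell by 0.94 ± 0.16 in the authors' deposited table (adjusted p = 0.0232 by edgeR). Regions in Dnm3, a dynamin, and Afap1l2, an actin-associated adaptor, fell by 0.89 ± 0.17 and 0.94 ± 0.17 in the authors' deposited table, while 1 in Cpne8, a copine, rose by 0.98 ± 0.19. A region labelled Ank3, for ankyrin G, fell by 1.07 ± 0.20 in the authors' deposited table but lay outside the RefSeq gene.

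Among genes of transcription, RNA and signalling, regions in Foxp1, a forkhead repressor, and Zfp608, a zinc finger gene, rose by 1.10 ± 0.20 and 0.92 ± 0.18 in the authors' deposited table. The Pknox2 region whose sequence is printed above fell by 0.85 ± 0.17 (adjusted p = 0.0498 by edgeR in the authors' deposited table). Pknox2 encodes a TALE homeodomain factor, and at 2146 bp its region was the widest of the 592, with a mean log2 CPM of 5.90 in the authors' deposited table. Msi2, a Musashi RNA-binding protein, hosted the region with the most reads of the 43, a mean log2 CPM of 6.02 in the authors' deposited table, which fell by 0.95 ± 0.18. A region in Rbfox3, a splicing factor gene, fell by 1.12 ± 0.19 in the authors' deposited table. Dusp4 encodes a phosphatase that inactivates MAP kinases, and its region (chr8:34809605-34810065), 1995 bp from the gene's start and touching a CpG island, fell by 1.12 ± 0.22 in the authors' deposited table (adjusted p = 0.0444 by edgeR). A further 8 of the 43 regions rose in Ptpre and Pip4k2a and fell in Fbxl13, Dpp6, Trit1, Ms4a18, Commd10 and Pepd, with absolute log2 fold changes between 0.79 and 1.16 in the authors' deposited table.

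**Figure D2:**
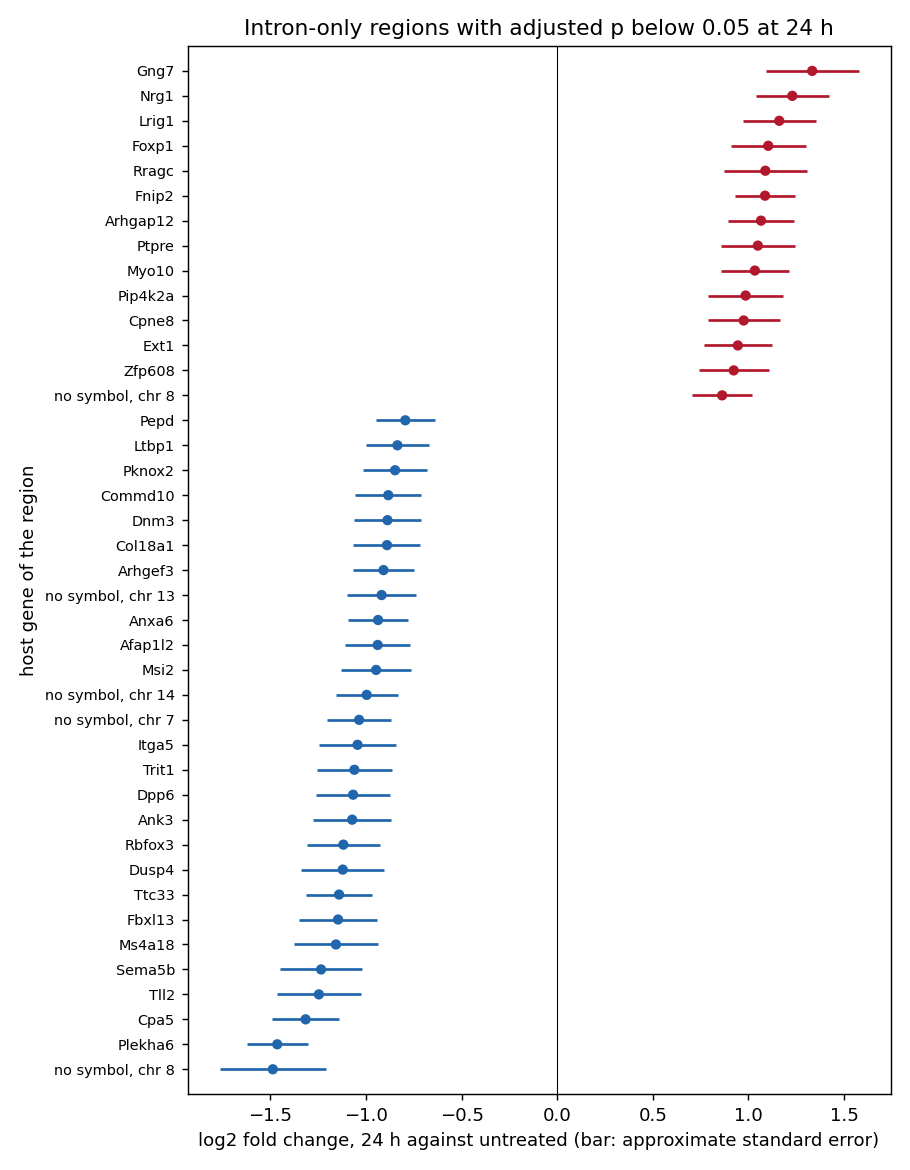
Intron-only regions with an adjusted p below 0.05 at 24 h, 41 of the 43, by host gene (vertical axis), with its deposited log2 fold change against untreated (horizontal axis). Bars are approximate standard errors, and the points run from -1.49 at a region with no symbol to 1.33 in Gng7, with 27 points left of 0 and 14 right of it.

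After 3 h no intron-only region passed the adjusted threshold. The list held 166 intron-only regions, 28.2% of its 588 regions, all of them at raw p below 0.005 and changed by 1.5-fold or more, and 0.403% of all tested regions were listed. Under an adjusted p of 0.05 the edgeR count was 0 of the 166, all 166 had an unadjusted p under 0.05, no other tool could be run, and 0.000685% of all tested regions were called. The smallest edgeR adjusted p was 0.338, and 123 of the 166 were above 0.9. The values that follow are therefore log2 fold changes without a call. The sign was positive at 88 regions (0.224% of all tested regions were listed as higher) and negative at 78 (0.179% as lower), or 53% positive (interval 45.1 to 60.8%) beside 55.6% of the whole list, 79.8% of promoter regions and 40% of regions with no genic annotation. The median absolute log2 fold change was 0.74, beside 0.75 for the whole list.

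The positive region with the smallest p at 3 h was a region with no host symbol (chr8:84974844-84975482), 3266 bp from the start of Junb, an AP-1 subunit gene, with a log2 fold change of 1.04 ± 0.20 in the authors' deposited table (adjusted p = 0.338 by edgeR). This region did not lie wholly inside any RefSeq gene body. A region labelled 1500015L24Rik (chr19:20371172-20372692) had 1.67 ± 0.32 in the authors' deposited table (adjusted p = 0.338 by edgeR). A second region 175 bp away had 1.03 ± 0.31, and both lay outside the RefSeq body of that gene, the first 17979 bp from the start of Anxa1, an annexin gene. Nr4a1, an orphan nuclear receptor induced by many stimuli, hosted a region with a log2 fold change of 0.76 ± 0.17 in the authors' deposited table (adjusted p = 0.678 by edgeR). A region in Gm15441, 5760 bp from the start of Txnip, an inhibitor of thioredoxin that responds to glucose, had 1.20 ± 0.29 in the authors' deposited table. Regions in Dyrk1a, a kinase, and Ell, an elongation factor of RNA polymerase II, had 0.95 ± 0.19 and 0.86 ± 0.18 in the authors' deposited table. Other positive regions with small p were in Chst1 and Hs6st1, sulfotransferases of sugar chains, and in Dlgap4, Cyth3 and Zfhx3, between 0.72 and 0.89 in the authors' deposited table. The largest positive value, 1.77 ± 0.55 in Sh3gl3 in the authors' deposited table, came from a region with a mean log2 CPM of -0.59, and a region in Arhgap12, not the 1 called at 24 h, had 1.41 ± 0.42.

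Negative regions at 3 h were led by Ttc33, whose log2 fold change was -0.88 ± 0.17 in the authors' deposited table (adjusted p = 0.341 by edgeR), the same region that fell at 24 h. Regions in Rad51b, a homologous recombination gene, and Slco3a1, an organic anion transporter gene, had -0.89 ± 0.18 and -0.79 ± 0.16 in the authors' deposited table. Nes encodes the intermediate filament nestin, which myoblasts and young myotubes express, and its region had -0.83 ± 0.18 in the authors' deposited table (adjusted p = 0.623 by edgeR). Regions in Arl6ip5, Medag, Dcps, Zmynd8 and Nfyc, a subunit of the CCAAT-binding factor NF-Y, had values between -0.85 and -0.69 in the authors' deposited table. The most negative values were, in the authors' deposited table, -1.41 ± 0.45 in Zdhhc14, a palmitoyltransferase gene, -1.29 ± 0.30 at a region 11.6 kb outside Gm13710 and -1.22 ± 0.31 in Snx29.

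Between 3 h and 24 h the list was the longest, and again no region passed the adjusted threshold. Intron-only regions numbered 426, 33.9% of the 1256 listed by raw p and fold, and 0.860% of all tested regions were listed. The edgeR count under an adjusted p of 0.05 was 0 of the 426, all 426 had an unadjusted p under 0.05, no other tool could be run, and the smallest edgeR adjusted p was 0.195. Accessibility was listed as higher at 24 h for 262 regions (0.475% of all tested regions) and lower for 164 (0.385%). The positive share was 61.5% (interval 56.7 to 66.1%), beside 55.2% of the list, 68.1% of regions with no genic annotation and 21% of promoter regions, with no test between classes. The median absolute log2 fold change was 0.81, beside 0.80 for the whole list. Low-read regions were mostly positive: a mean log2 CPM below 1 was deposited for 47 of the higher and 10 of the lower regions, and the part of read depth in the split was not tested.

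The positive regions with the smallest p in this comparison were in Cpne8, at 1.14 ± 0.19, and Ext1, at 0.95 ± 0.18, in the authors' deposited table (adjusted p = 0.195 and 0.222 by edgeR). Kifap3, an adaptor of kinesin-2, hosted a region at 1.0 ± 0.19 and Nrg1 the region described above at 0.93 ± 0.19 in the authors' deposited table. Regions in Gm20125 and Gm38407 had 1.23 ± 0.24 and 1.07 ± 0.21 in the authors' deposited table. Regions in Mid1, a microtubule-bound ubiquitin ligase, Specc1, Evi5 and Cyp39a1, an oxysterol hydroxylase, had values between 0.82 and 0.99 in the authors' deposited table. The largest value was 2.19 ± 0.53 in Trpm3, a cation channel gene, from a region with a mean log2 CPM of -0.27 in the authors' deposited table, followed by 1.87 ± 0.51 in Csnk1g3 and 1.87 ± 0.55 in Gm36595.

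Among negative regions, Col18a1 came first with a log2 fold change of -1.07 ± 0.18 in the authors' deposited table (adjusted p = 0.195 by edgeR), followed by Plekha6, Gdpd5, 9030404E10Rik and Cpa5 between -0.94 and -0.87 (0.222 each). Bcl2l11, which encodes the pro-apoptotic protein Bim, hosted a region at -1.13 ± 0.24 in the authors' deposited table (adjusted p = 0.257 by edgeR). Chst11, a chondroitin sulfotransferase gene, hosted a region at -0.96 ± 0.20, and the region labelled Galnt2 that lay 2359 kb from it had -0.85 ± 0.18 in the authors' deposited table. Regions in Anxa6 and Afap1l2 that fell at 24 h against untreated had -0.72 ± 0.16 and -0.76 ± 0.17 here in the authors' deposited table. The most negative value was -1.61 ± 0.51 in the authors' deposited table, at a region labelled Morrbid, a long non-coding RNA gene beside Bcl2l11. That region lay 32.8 kb outside Morrbid. Next were -1.55 ± 0.40 in Ttc28 and -1.48 ± 0.38 in Dscam, a cell adhesion gene, in the authors' deposited table. Mean log2 CPM was low at these regions, at 0.26 for Morrbid, 1.42 for Ttc28 and 0.63 for Dscam.

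The same region appeared in more than 1 list in 42 cases: 41 in 2 lists and 1, Plekha6, in all 3. The comparisons share libraries, so the values are given side by side and no overlap is read from them. The Plekha6 region had log2 fold changes of -0.59 at 3 h, -1.46 at 24 h and -0.87 for 24 h against 3 h in the authors' deposited tables. In 9 regions listed at 3 h and 24 h, both against untreated, the values of the authors' deposited tables were for example -0.88 and -1.14 in Ttc33, 0.67 and 1.16 in Lrig1, and 0.93 and 1.33 in Gng7. Tll2 had -0.66 and -1.25, Fbxl13 -0.75 and -1.15, and Dnm3 -0.75 and -0.89 in the same authors' deposited tables. In all 9 the larger absolute value was that at 24 h, where the list also has the stricter limit.

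Another 23 regions were listed at 24 h against untreated and at 24 h against 3 h. They included Cpa5, with -1.32 and -0.91, Nrg1, with 1.23 and 0.93, Fnip2, with 1.09 and 0.60, and Dusp4, with -1.12 and -0.77, in the authors' deposited tables. In Col18a1 and Cpne8 the value against 3 h was the larger in size, -1.07 beside -0.89 and 1.14 beside 0.98 in the authors' deposited tables, and in Ext1 they were 0.95 and 0.94. A further 9 regions were listed at 3 h against untreated and at 24 h against 3 h, with opposite signs in each. The region near Junb had 1.04 and -0.73, Bcl2l11 0.70 and -1.13, and Hs6st1 0.79 and -0.70 in the authors' deposited tables. Adgrl1, an adhesion receptor gene, had 0.81 and -0.69 in the authors' deposited tables. Mme, which encodes the peptidase neprilysin, had -0.90 and 1.11, Gm38407 -0.67 and 1.07, Cwc27 -0.65 and 0.83, and Syn3 -0.62 and 0.67 in the authors' deposited tables. The 3 h libraries enter this pair of comparisons with opposite sign, and none of these 9 passed the adjusted threshold in either.

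**Figure D3:**
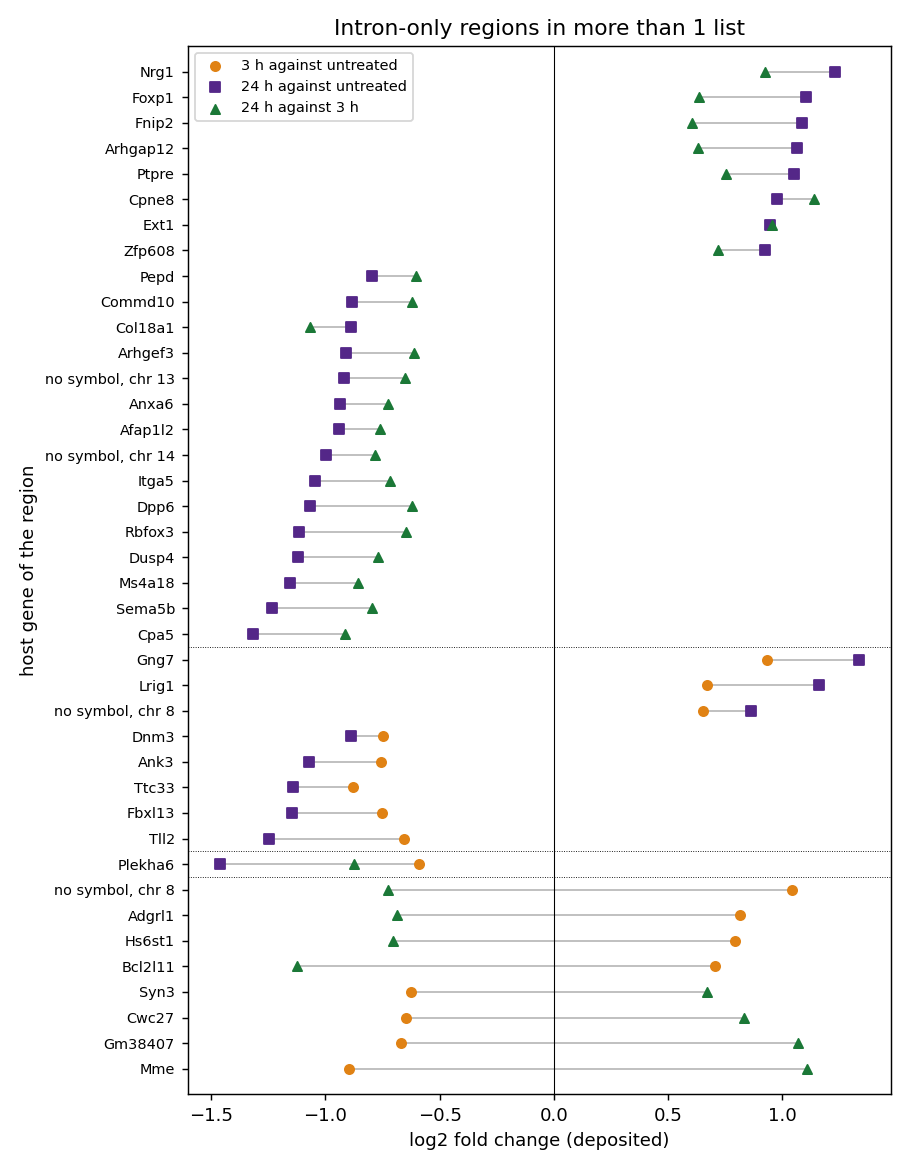
Deposited log2 fold changes (horizontal axis) of 40 of the 42 intron-only regions found in more than 1 list, by host gene (vertical axis), with orange circles for 3 h against untreated, purple squares for 24 h against untreated and green triangles for 24 h against 3 h. From the top, dotted lines separate the 23 regions listed in both 24 h comparisons, 8 of the 9 listed at both times against untreated, Plekha6 in all 3 lists, and 8 of the 9 listed at 3 h and for 24 h against 3 h, whose points lie on opposite sides of 0.

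The distance of the regions from the start of their hosts, and the length of those hosts, varied with the direction of change. At 3 h the median distance was 20.1 kb for 76 higher regions and 68.0 kb for 65 lower regions, in hosts with a median length of 86.6 and 135.6 kb, and the regions sat 34.7% and 47.0% of the way along them. A RefSeq gene start lay within 5 kb of 21 of the 88 higher regions, 23.9% (interval 15.4 to 34.1%), and of 9 of the 78 lower regions, 11.5% (5.41 to 20.8%). A CpG island, shore or shelf was annotated at 15 of the higher regions, 17.0% (9.87 to 26.6%), and at 3 of the lower, 3.85% (0.80 to 10.8%). For 24 h against 3 h the order was the opposite: 76.3 kb for 228 higher and 36.0 kb for 146 lower regions, in hosts with a median length of 190.8 and 109.1 kb. The place along the host was nearly equal there, at 50.8% of its length for higher and 49.8% for lower regions. A gene start within 5 kb was found for 24 of 262 higher regions, 9.16% (5.96 to 13.3%), and 30 of 164 lower, 18.3% (12.7 to 25.1%), and a CpG annotation for 5 higher, 1.91% (0.62 to 4.40%), and 21 lower, 12.8% (8.10 to 18.9%). The libraries at 3 h enter both comparisons with opposite sign, so these are not separate observations. At 24 h against untreated the medians were 34.1 kb for 14 regions that rose and 60.7 kb for 21 that fell, at 44.4% and 45.9% of the way along hosts of 130.3 and 129.9 kb, with 2 and 6 regions within 5 kb of a start and 3 and 3 with a CpG annotation. These differences were not tested, because regions are not replicates, and the intervals cover counting error only.

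**Figure D4:**
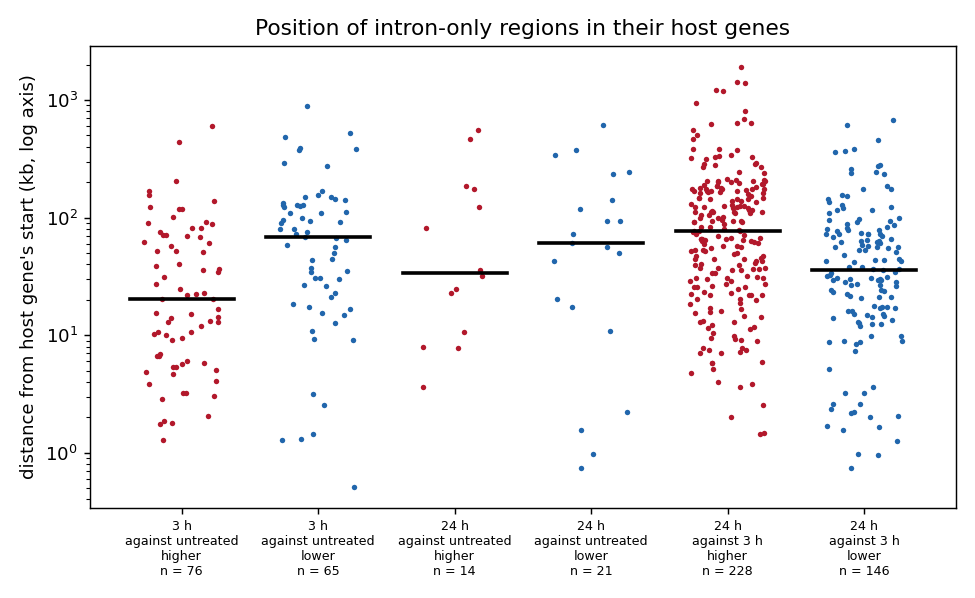
Distance of intron-only regions from the start of their host gene (vertical axis, kb, log axis), by comparison and direction, for regions inside the RefSeq body of a host. Each point is a region and black lines are medians, which were 20.1 and 68.0 kb at 3 h, 34.1 and 60.7 kb at 24 h, and 76.3 and 36.0 kb for 24 h against 3 h, for higher and lower regions in turn.

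Several genes hosted more than 1 region: 14 hosted 3, 39 hosted 2 and 438 hosted 1. In 44 cases at least 2 regions with the same host symbol were in the same list, and in 40 of them all had the same sign. For 24 h against 3 h this was 35 of 37, and at 3 h 5 of 7, while no gene held 2 regions in the 24 h list. The exceptions were Arfip1 and Prkce for 24 h against 3 h, and Cenpp and Morrbid at 3 h. Regions of a gene share its surroundings and are not independent, and 7 pairs of neighbouring regions lay less than 2 kb apart. The cases are counted by symbol and include pairs in which both regions lay outside the RefSeq body of the named gene. These were Galnt2, Fgfr2 and Gm20740 for 24 h against 3 h, and Tuba1b and 1500015L24Rik at 3 h. The Gm20740 regions lay 222.1 and 16.5 kb outside, and the Tuba1b regions 12.5 and 13.1 kb outside. Each of these pairs was among the cases with the same sign. Signs of region pairs from different genes were not compared, so no share stands beside these counts. Some pairs would share a sign in any case, as 61.5% of the intron-only regions listed for 24 h against 3 h were positive.

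Among the 14 genes, several hosts encode regulators of the cytoskeleton. In 24 h against 3 h, Arhgap42, a GTPase-activating protein of smooth muscle, held regions at 1.03, 0.72 and 0.85, and Arhgap22, which acts on Rac, held regions at -0.80, -0.63 and -0.78, in the authors' deposited table. Afap1, an actin crosslinking adaptor, had -0.90, -1.03 and -0.75, and Sorbs2, a Z-disc and stress fibre adaptor, had 0.69, 0.84 and 0.59 in the authors' deposited table. Ext1 had 0.73, 0.95 and 0.77 in the authors' deposited table, with the last 2 regions 154 bp apart. Tanc2, a scaffold protein gene, had 0.82, 0.90 and 1.13, Ptprq, a phosphatase-like receptor gene, 0.89, 1.18 and 0.61, and Zfp438 1.18, 0.66 and 0.72 in the authors' deposited table. Slc24a4, a sodium, potassium and calcium exchanger gene, had -0.87, -0.86 and -0.94, and Mbp, the myelin basic protein gene, -1.41, -0.87 and -0.60 in the authors' deposited table. In these genes the regions spanned between 24.99 kb in Arhgap22 and 171.9 kb in Sorbs2, and the edgeR adjusted p of each region was above 0.3 in 24 h against 3 h except at Ext1, where it reached 0.222.

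Regions of both signs were held by Ltbp1, Cenpp and Morrbid, among others. Ltbp1 had 0.97 and 0.60 for 24 h against 3 h and, at another region, the loss of 0.84 at 24 h against untreated, in the authors' deposited tables. Cenpp, a centromere protein gene, had -0.60 and 0.85 at 3 h and 0.68 for 24 h against 3 h in the authors' deposited tables. The regions at 0.85 and 0.68 also carried the symbol Aspn and lay within that shorter gene. Morrbid had 0.64 and -0.65 at 3 h and -1.61 for 24 h against 3 h in the authors' deposited tables, and only the first of these lay inside its RefSeq body.

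**Figure D5:**
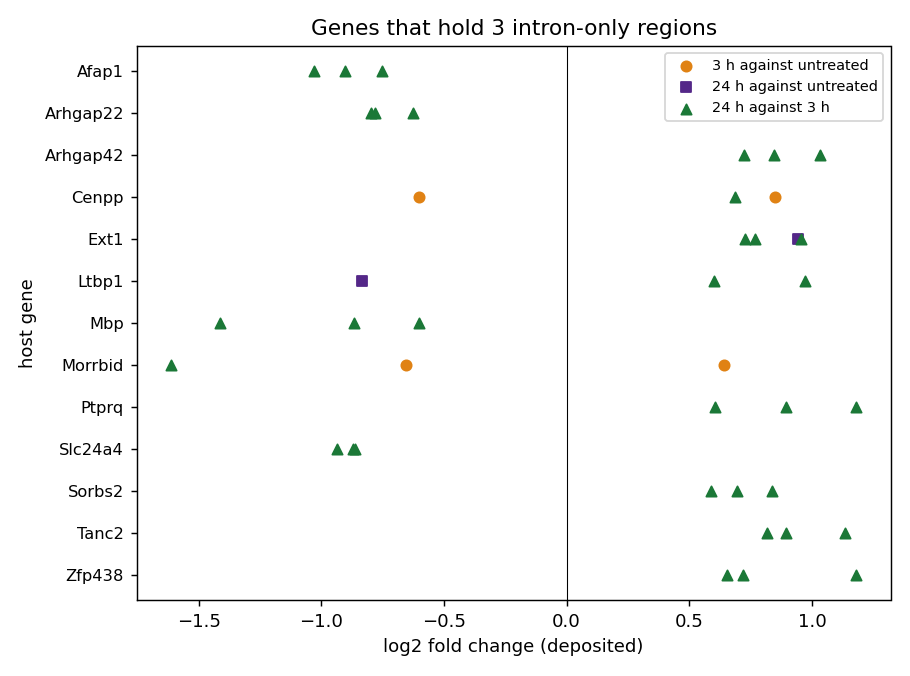
Deposited log2 fold changes (horizontal axis) of intron-only regions in 13 of the 14 genes that hold 3 of them (vertical axis), with orange circles for 3 h against untreated, purple squares for 24 h against untreated and green triangles for 24 h against 3 h. In 10 of the genes every point lies on the same side of 0, and Cenpp, Ltbp1 and Morrbid have points on both sides.

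Pathways that the treatment could touch were read through lists of host genes. Counted by host label, 2.07% of all RefSeq protein-coding genes hosted an intron-only region. The counts below stand beside that share, with no test and with hosts longer than the average gene. The gene lists were also chosen with earlier results of these data known, so no excess over the share is read from the counts. Of 38 genes of ammonia and amino acid metabolism, 1 hosted an intron-only region: Ampd3, an AMP deaminase that releases ammonia, whose region with the sequence printed above had a log2 fold change of 0.79 ± 0.23 for 24 h against 3 h in the authors' deposited table (adjusted p = 0.437 by edgeR). None of 30 genes listed for the integrated and oxidative stress responses hosted one. Atf3, which is induced by stress and hosted a region, was counted with the immediate early and AP-1 genes instead. Of 36 genes of hypoxia, glycolysis and mitochondria, only Esrrb, an orphan nuclear receptor gene, did, at -0.63 ± 0.20 for 24 h against 3 h in the authors' deposited table. Of 38 genes of insulin and mTORC1 signalling, 3 did: Fnip2 and Rragc, which rose at 24 h, and Irs1, an adaptor of the insulin receptor, at 0.99 ± 0.31 at 3 h in the authors' deposited table.

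No region in a listed muscle gene was called. Of 40 myogenic regulators 5 hosted 6 regions. In 24 h against 3 h, Tead4, a TEAD factor of muscle differentiation, had 0.86 ± 0.21, Eya4, a coactivator in eye and muscle development, 0.98 ± 0.24 and 0.61 ± 0.18, and Hdac9, which represses MEF2, 0.73 ± 0.23 in the authors' deposited table. Pax7, the satellite cell factor, had -0.62 ± 0.19 in the same comparison, and Hdac4, also a repressor of MEF2, had -0.61 ± 0.18 at 3 h, in the authors' deposited tables. Of 48 sarcomere and myofibril genes 5 hosted regions. Myom1, which encodes the M-band protein myomesin, and Cap2, an actin-binding protein gene, had -0.66 ± 0.19 and -0.72 ± 0.22 at 3 h in the authors' deposited table. The Z-disc genes Pdlim3 and Pdlim5 had 0.90 ± 0.24 and 0.62 ± 0.18, and Xirp2, an actin-binding gene of muscle, 1.04 ± 0.30, for 24 h against 3 h in the authors' deposited table, though the Xirp2 region lay 21.7 kb outside its RefSeq body. Of 33 proteolysis and autophagy genes 3 hosted regions, among them Capn2, a calpain, at 0.93 ± 0.29 at 3 h, and Atg10, an autophagy enzyme, at 0.90 ± 0.27 for 24 h against 3 h, in the authors' deposited tables.

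In signalling lists, 7 of 50 small GTPase regulators hosted 13 regions, of which 1 rose (Arhgap12) and 1 fell (Arhgef3) at 24 h. Of 67 guidance, adhesion and matrix genes 8 hosted 9 regions, and in 24 h against 3 h all 7 listed values were negative: Pxn, the focal adhesion protein paxillin, had -0.88 ± 0.25, Slit1, a guidance ligand, -1.14 ± 0.35, and Col4a1, a basement membrane collagen, -0.72 ± 0.22 in the authors' deposited table. The 7 include the Col18a1, Sema5b and Itga5 regions already given as losses at 24 h, and a second Col18a1 region. Both comparisons use the 24 h libraries, so the shared sign is not a result separate from those losses. Over all regions listed in 24 h against 3 h 55.2% were positive, as were 61.5% of the intron-only ones, and none of the 7 was called in it. Adhesion and matrix hosts outside the list had both signs there, so the shared sign holds for the listed genes only. Examples are 0.90 in Adamts5, 1.03 in Cdh18 and -0.91 in Itgb2 in the authors' deposited table. Of 37 genes of TGF-beta, BMP and YAP signalling 5 hosted regions. In 24 h against 3 h, Ski, a corepressor of Smads, had -1.36 ± 0.40, Smad1, a BMP effector, -1.11 ± 0.35, Bmpr1a, a BMP receptor, 0.75 ± 0.24, and Vgll3, a TEAD cofactor, 0.59 ± 0.18 in the authors' deposited table. Of 36 immediate early and AP-1 genes 3 hosted regions: Nr4a1 and Dusp4, given above, and Atf3, a stress-induced factor, at 1.21 ± 0.30 at 3 h in the authors' deposited table. Of 32 growth factor and receptor kinase genes 4 hosted regions, with Nrg1 and Lrig1 risen at 24 h, and Pdgfc, a PDGF ligand, at 0.62 ± 0.19 at 3 h in the authors' deposited table. The count includes Fgfr2, whose regions lay far outside it. Of 45 calcium and ion transport genes 4 hosted regions, including Atp2b1, a plasma membrane calcium pump, at 0.77 ± 0.23 at 3 h, Kcnj12, an inward rectifier channel, at -0.66 ± 0.18 for 24 h against 3 h, and Cacna2d1, the alpha2delta subunit of the muscle calcium channel, at 0.84 ± 0.26 and 0.97 ± 0.31 for 24 h against 3 h, in the authors' deposited tables. Of 30 cyclic nucleotide genes 2 phosphodiesterases hosted regions, Pde1a at -0.66 ± 0.18 at 3 h and Pde4d at 0.69 ± 0.18 for 24 h against 3 h in the authors' deposited tables, the latter 50.2 kb outside its RefSeq body, and of 27 cell cycle, p53 and apoptosis genes Rad51b and Bcl2l11 did.

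The lists' limits cut through the members. At 3 h the regions nearest the p limit were in Bcl2l11, Tll2 and Chd9, with raw p between 0.00495 and 0.00496, and those nearest the fold limit were in Gm33677, Fam78a and Car10 at 1.5-fold in the authors' deposited table. At 24 h Ltbp1, Rragc and Pip4k2a were nearest, with an edgeR adjusted p of 0.0499, and the smallest change was 1.73-fold in Pepd in the authors' deposited table. For 24 h against 3 h Cacna2d1, Afap1 and Colec12 had raw p between 0.00494 and 0.00497 and Tmcc1, Col18a1 (a second region) and Morn1 were at 1.5-fold in the authors' deposited table. Regions just outside the limits were not analysed here.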

How the data were processed

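ATAC-seq was run on 9 libraries, grouped from the labels, with 3 per group. The submitters' processing notes name the build mm10 and, with no roles, Bowtie2 2.3.4.1, MACS2, edgeR, Trim Galore 0.4.5 (cutadapt 1.15), SAMtools, Picard 2.20.2, bedtools, FastQC and MultiQC. How they were run, whether reads were shifted for transposase binding, and whether libraries were pooled for peaks is not given in the sources used here. For each region and annotation, the authors' tables give the log2 fold change and mean log2 CPM, the raw and adjusted p-value, and the F statistic (a score), all used as deposited. By their values, the 3 h list and the 24 h against 3 h list hold regions with raw p below 0.005 that changed by 1.5-fold or more, and the 24 h list adjusted p below 0.05, so list lengths are not comparable.

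Annotation rows were collapsed to 1 row per region, and the number of tested regions, 146047, was recovered from adjusted p and rank, a step tested on simulated data. It was the most frequent estimate in each list. The ranks that gave it were 58 of 58 used in the 24 h list, 59 of 69 in the 3 h list and 75 of 221 in the list of 24 h against 3 h. Shares carry 95% Clopper-Pearson intervals, which cover counting error only. Gene bodies, starts and sequences were from RefSeq (GRCm38.p6). No new test was run across libraries, and depth per library is unknown. The members and gene lists were chosen with earlier results of these data known. Named genes are those with adjusted p below 0.05, the 10 smallest p and 3 largest changes per direction elsewhere, up to 20 regions in several lists, genes with 3 regions, up to 6 per gene list, and 3 nearest each limit. Regions placed beside these in the text, such as the remaining pairs, were chosen after their values were seen. Some genes that the rule names are left out of the text and figures and are not reported here. Scripts ran in Python 3.11.15 with matplotlib 3.10.9, scipy 1.17.1, pandas 2.3.3 and numpy 2.4.6.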

Additional observations from a re-analysis of the deposited data

How the results depend on the processing

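No paired analysis was possible because values of single libraries are not in the tables, and for the same reason no replicate could be left out and no other normalization tried. Of 45 values computed under 5 alternatives for 9 results, 30 stayed within 1.5 times the count or within the 95% interval of the share or median, and 15 did not. With every list held to the raw p limit of the 24 h list, the 3 h list kept 3 intron-only regions, 66.7% higher, with a median absolute log2 fold change of 1.04, and the list of 24 h against 3 h kept 10, 50% higher, with a median of 0.98. Requiring a 2-fold change left 21 regions at 3 h, 76.2% higher, with a median of 1.20, left 26 at 24 h with a median of 1.11, and left 93 for 24 h against 3 h, 76.3% higher, with a median of 1.14. A mean log2 CPM of at least 1 gave a median of 0.78 for 24 h against 3 h. Counts fall with stricter limits by construction, and the cause of the moved shares was not tested. Leaving out CpG annotations, or keeping regions inside a RefSeq gene body and over 5 kb from a gene start, moved none of the 9 results past these bounds.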

Other observations

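Among the 39 genes with 2 intron-only regions, several are known from muscle, adhesion or growth factor signalling, and they were picked for this paragraph after their values were seen. In 24 h against 3 h, regions in Tln2, which encodes the integrin-binding protein talin 2, had log2 fold changes of -0.70 and -0.77 in the authors' deposited table. Glis3, a zinc finger factor, had 0.64 and 0.78, and Zfpm2, a cofactor of GATA factors, 0.63 and 1.02 in the authors' deposited table. At 3 h the 2 regions of Tmem182, a muscle membrane protein gene, had -0.60 and -0.66 in the authors' deposited table, 1204 bp apart. None passed the adjusted threshold, and regions of a gene are not independent. Of the 592 regions 33 had a long non-coding RNA as host.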
